A study of Mus musculus with 12 samples.

Results

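Hamp and Hamp2 are the neighbouring mouse genes for hepcidin 1 and hepcidin 2. They were selected by gene symbol and are 2 of the 16728 genes listed for this RNA-seq series. The study measured total RNA of liver-derived primary hepatocytes, which are liver parenchymal cells taken from the animal and kept in culture. All 12 libraries were labelled C57BL/6 and all cells grew in DMEM medium containing fetal bovine serum. There were 3 libraries in each of 4 groups: wild-type (WT) cells given AC, WT cells given FAC, Fxr-/- (KO) cells given AC and KO cells given FAC, each at 100 µM for 24 h. Fxr, listed as Nr1h4, is the nuclear receptor for bile acids. The labels give FAC and AC as abbreviations only, and AC served as the comparator of FAC. The labels do not say how Fxr was disrupted, how old the mice were, or whether the 3 libraries of a group came from separate animals or cultures. The p-values below therefore measure only the spread between these libraries, which may be technical.

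Hepcidin 1 is a small disulfide-rich hormone that the liver secretes. It binds ferroportin (Slc40a1), the cellular iron exporter, and has it degraded, so that less iron enters the blood from the gut and from macrophages. In the liver, Hamp transcription is driven mainly by bone morphogenetic protein (BMP) signalling through SMAD proteins, which carries the body's iron status, and by IL-6 through STAT3, which carries inflammation. Humans have a single hepcidin gene. Mice carry a duplicate, Hamp2, whose product does not lower body iron when it is overproduced in transgenic mice.

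In the GRCm38.p6 build of RefSeq, Hamp (gene ID 84506) lies at chr7:30942368-30944029 and Hamp2 (gene ID 66438) at chr7:30922372-30924181. Both are on the minus strand, have 3 exons and start 19.8 kb apart.

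The coding sequences each had 249 bases and were identical at 233 of them (93.6%). The mature hepcidin peptide is encoded by the last 25 codons, where the copies differed most, as the differing bases in capitals show. These codons lie at chr7:30942480-30942554 for Hamp and chr7:30922511-30922585 for Hamp2 (GRCm38, minus strand).
Hamp last 25 codons: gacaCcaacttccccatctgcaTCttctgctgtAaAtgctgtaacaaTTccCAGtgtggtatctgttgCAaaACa
Hamp2 last 25 codons: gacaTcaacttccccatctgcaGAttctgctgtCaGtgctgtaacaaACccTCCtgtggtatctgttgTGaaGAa
In this stretch 61 of 75 bases were identical (81.3%) and 8 of 25 codons encoded a different residue. All 8 cysteine codons, for the residues that form the disulfide bonds of hepcidin, were present in both copies. Before it, 172 of 174 bases were identical (98.9%) and 1 of 58 codons changed its residue. Between the full-length transcripts, 60 of the 361 windows of 50 bases in Hamp (16.6%) and 60 of 371 in Hamp2 (16.2%) occurred exactly in the other copy, and no window of 100 bases did. The read length is not given in the sources used here. Reads from the shared stretches could be divided between the copies by the authors' quantification, which estimates counts for such reads. The lower copy in each library is therefore the more uncertain. All estimated counts of both genes were whole numbers, and how shared reads were divided was not tested.

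Across the series, libraries held 16464494 to 18335700 estimated reads. Nr1h4 reads remained in the KO libraries: its mean FPKM (fragments scaled by transcript length and library size) was 7.83 in WT AC, 3.94 in WT FAC, 4.47 in KO AC and 2.30 in KO FAC. All 10 hepatocyte markers were detected, and albumin averaged 9384 FPKM in KO AC, its lowest group. Summed hepatocyte markers ran from 25740 to 28020 CPM (library-scaled read counts) under AC and from 34090 to 37940 under FAC, over both genotypes. The sum is dominated by albumin. Between genotypes, 7 of the 10 were higher in KO and 3 lower under AC (median log2 fold change 1.34), and 7 higher and 2 lower under FAC (1.52). With FAC, 5 of the 10 rose and 2 fell in WT (median 0.43), where 8.7% of all genes rose and 8.55% fell. In KO, 9 rose and 0 fell with FAC (median 0.56), where 15.0% of all genes rose and 14.6% fell. Of 10 Kupffer cell and macrophage markers, Clec4f and Timd4 had at most 3 reads in any group. Their sum of 352.4 to 864 CPM was carried by Cd68, a lysosomal gene that is not specific to these cells. Of the 5 tested, 3 were lower in KO under AC (median -2.75) and 3 under FAC (median -2.49), and Cd68 was higher. Of 9 sinusoidal endothelial markers, 5 were lower and 2 higher in KO under each treatment (median -0.45 under AC and -0.68 under FAC). As background for all marker counts between genotypes here, 21.7% of all genes were higher and 21.2% lower in KO under AC. Under FAC these shares were 24.6% and 24.9%. Summed stellate cell markers were 14.01 to 17.3 CPM in WT AC, 12.2 to 12.5 in WT FAC, 6.42 to 7.5 in KO AC and 4.51 to 6.81 in KO FAC. Summed endothelial markers ran from 67.2 to 91.1 CPM. Summed cholangiocyte markers ran from 343.1 to 403.5 CPM in WT and from 93.0 to 165.6 in KO. Spp1 was the marker that carried the lower sum in KO (mean FPKM 296 in WT AC and 40.3 in KO AC). Of the 5 cholangiocyte markers tested, 1 was higher and 1 lower in KO under AC (median 0.495). Under FAC, 3 were higher and 1 lower (median 0.971). The part of these other cell types in the results was not tested. In bulk RNA, fewer cells of a type and less RNA per cell cannot be told apart.

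Hamp was among the most abundant transcripts of WT cells given AC and was far lower after FAC, whereas Hamp2 was almost undetected in WT cells and present in every KO library. In WT AC the Hamp FPKM was 1269, 1379 and 1304, and Hamp ranked between 96 and 102 by FPKM among all listed genes. In WT FAC it was 67.0, 81.2 and 38.8, and the rank was between 1095 and 2185. The groups did not overlap, and the lowest WT AC library stood far above the highest WT FAC library.

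In KO AC the Hamp FPKM was 512.9, 1041 and 992.0, with ranks between 128 and 226. In KO FAC it was 500.1, 291.5 and 229.1, with ranks between 240 and 406. The KO libraries varied more among themselves than those of WT AC: library KO AC 1 lay at the level of library KO FAC 4, whereas the other KO AC libraries were well above all KO FAC libraries. By mean FPKM the order was WT AC (1317 ± 56.5, SD, n = 3), KO AC (849 ± 292), KO FAC (340 ± 142) and WT FAC (62.3 ± 21.6). Of the neighbours in this order, KO AC and KO FAC lay closest, with 512.9 as the lowest KO AC value and 500.1 as the highest KO FAC value, and in TMM-scaled CPM these groups overlapped.

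Hamp2 was ordered first by genotype, with KO FAC highest, then KO AC, WT FAC and WT AC. In WT AC its FPKM was 0.39, 0.37 and 0.77, from 2, 2 and 4 reads. In WT FAC it was 1.53, 2.26 and 0.58, from 8, 12 and 3 reads. These WT groups overlapped, and both were near the lowest level that counting can resolve, since 3 reads is what a count of 0 allows.

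In KO AC the Hamp2 FPKM was 44.7, 38.3 and 36.7, from 238, 212 and 187 reads. In KO FAC it was 117.8, 127.4 and 135.6, from 634, 628 and 731 reads. Every KO FAC library was above every KO AC library, and every KO library was above every WT library. The means were 127 ± 8.90 in KO FAC, 39.9 ± 4.23 in KO AC, 1.46 ± 0.842 in WT FAC and 0.51 ± 0.225 in WT AC (SD, n = 3 each). Hamp2 ranked between 10598 and 11348 in WT AC and between 691 and 776 in KO FAC. The KO spread of Hamp2 was small where that of Hamp was wide: the SD was 10.6% of the mean in KO AC for Hamp2 and 34.4% for Hamp.

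**Figure D1:**
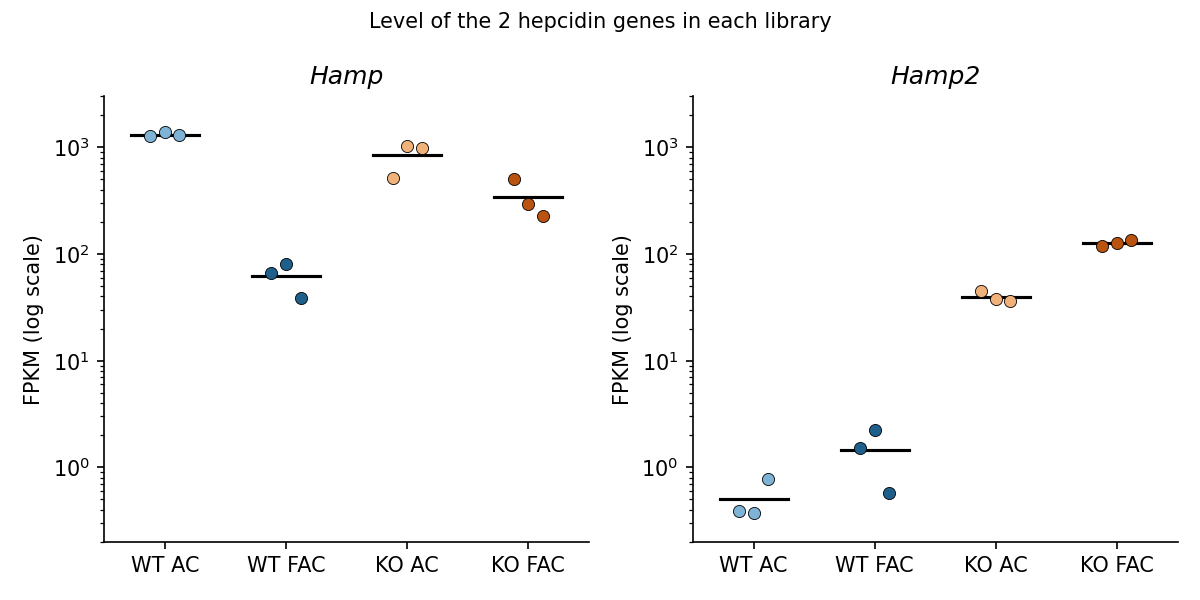
FPKM of Hamp (left) and Hamp2 (right) on log axes, with 1 point per library and a line at the mean of each group of 3. Hamp is highest in WT AC (1269 to 1379) and lowest in WT FAC (38.8 to 81.2), whereas Hamp2 stays between 0.37 and 2.26 in WT libraries and lies between 36.7 and 135.6 in KO libraries.

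The FAC effect on Hamp was tested on the estimated counts with edgeR's quasi-likelihood test, with Benjamini-Hochberg adjustment over the 12275 genes that passed a filter on low counts. In WT cells Hamp fell by 4.36 ± 0.42 (log2 fold change ± SE), that is 20.5-fold, with an edgeR adjusted p of 0.0002. Each edgeR SE was derived as the absolute log2 fold change divided by the square root of the test's F statistic. It is therefore approximate and can be too small where a group has few reads. Hamp2 moved by 1.52 ± 0.50 with an adjusted p of 0.0536, from 8 to 23 reads per group, and did not pass the threshold of 0.05. Thus 1 of the 2 genes was called, against 17.2% of all genes tested, 8.55% called lower and 8.7% higher. FPKM values of the WT groups did not overlap for Hamp, as for 43.2% of all genes. The ratio of the summed Hamp2 reads was 2.87, with an exact 95% interval of 1.24 to 7.42 that covers counting error only.

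In KO cells FAC lowered Hamp less and raised Hamp2. Hamp fell by 1.22 ± 0.37, or 2.33-fold, with an edgeR adjusted p of 0.0336. Hamp2 rose by 1.75 ± 0.14, or 3.37-fold, with an adjusted p of 4.16e-06. Both genes were called, in opposite directions, against 29.6% of all genes, 15.0% higher and 14.6% lower. In FPKM neither gene overlapped between the KO groups, as for 39.4% of all genes. The Hamp call did not hold without library KO AC 2 (-1.04, adjusted p 0.0962), KO AC 3 (-1.12, 0.1), KO FAC 5 (-1.12, 0.102) or KO FAC 6 (-0.99, 0.0737), nor with no filter (-1.23, 0.0569) or with the KO groups fitted alone (-1.22, 0.103). The direction was the same in each of these fits.

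**Figure D2:**
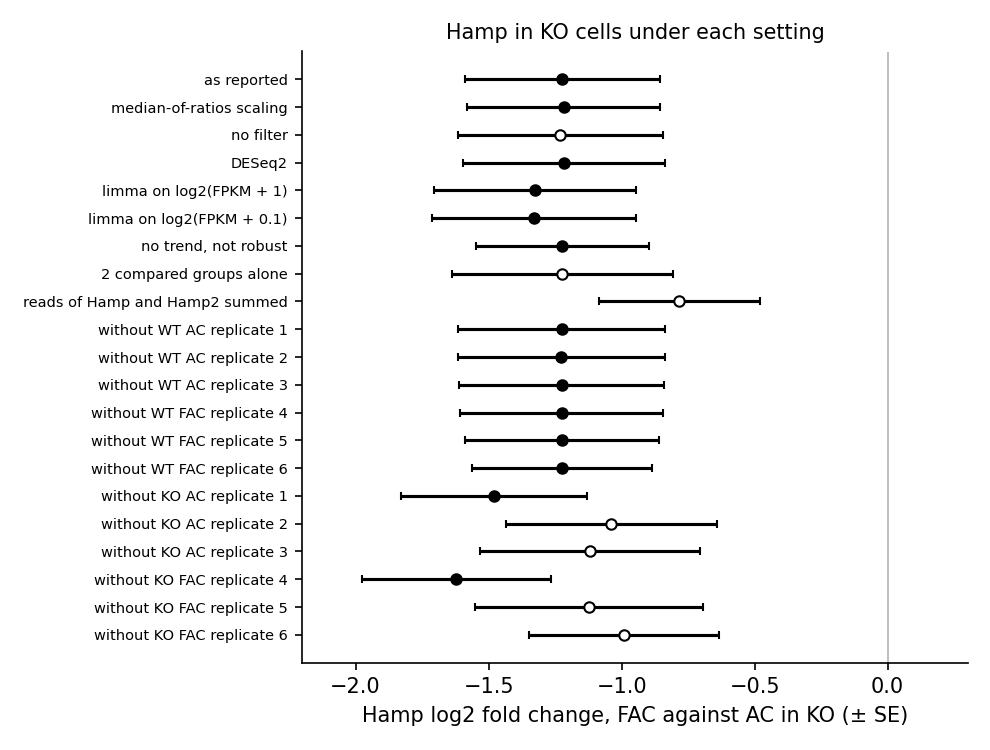
Log2 fold change of Hamp in KO cells, FAC against AC, with bars for the standard error, under the reported settings and each alternative. Filled points have an adjusted p under 0.05 and open points do not: every value lies below 0, from -1.62 to -0.78, but the call is lost without any of 4 KO libraries, with no filter, with the KO groups alone and with the reads of both genes summed, which is the value nearest 0.

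The test of the difference asks whether FAC acted unequally on a gene in the genotypes. For Hamp the FAC effect in KO minus that in WT was 3.14 ± 0.54 on the log2 scale, with an edgeR adjusted p of 0.0215, so the fall was 8.79-fold smaller in KO cells. For Hamp2 the difference was 0.23 ± 0.71, with an adjusted p of 0.901, and the SE leaves room for a large difference either way. So 1 of the 2 genes was called, against 3.15% of all genes, 1.87% higher and 1.28% lower in KO minus WT. The Hamp difference was not called without library WT AC 2 (3.08, adjusted p 0.0593), WT AC 3 (3.14, 0.0605) or WT FAC 4 (3.19, 0.0573).

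Between genotypes, Hamp2 set the KO cells apart under both treatments and Hamp under FAC. Under AC, Hamp2 was higher in KO cells by 6.31 ± 0.27 (log2), with an edgeR adjusted p of 7.51e-10. DESeq2 gave 6.385 with a larger SE of 0.528. The Hamp2 read sums were 637 in KO and 8 in WT. Their ratio per library size was 78.3, with an exact 95% counting interval of 39.5 to 182. Hamp under AC had a log2 fold change of -0.54 ± 0.36 with an edgeR adjusted p of 0.25: its 3 KO values all lay below the 3 WT values, but the difference did not pass. So 1 of the 2 genes was called, against 42.9% of all genes, with 21.7% called higher and 21.2% lower. FPKM values that did not overlap between these groups were found for 54.2% of genes.

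Under FAC, Hamp was higher in KO cells by 2.59 ± 0.40, or 6.02-fold, with an edgeR adjusted p of 0.000626. Hamp2 was higher by 6.54 ± 0.21 with an edgeR adjusted p of 3.42e-11, and DESeq2 gave a larger SE of 0.327. Its reads were 1993 in KO and 23 in WT, a ratio of 86.8 (exact 95% counting interval 57.7 to 137). Both genes were called higher, against 24.6% of genes called higher, 24.9% called lower and 49.5% in either direction. Neither gene overlapped between the genotypes, as for 61.3% of genes. The comparisons under AC and FAC share no library, but each shares its groups with the FAC comparisons above.

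The balance between the copies shifted in both directions of the design. Hamp2 made up 0.0307%, 0.0268% and 0.0590% of the summed FPKM of both genes in WT AC. It made up 2.23%, 2.71% and 1.47% in WT FAC, and 8.01%, 3.55% and 3.56% in KO AC. In KO FAC it made up 19.1%, 30.4% and 37.2%. The 4 groups did not overlap, and the share was lowest in WT AC, then WT FAC, then KO AC, and highest in KO FAC. The WT AC share rests on 2 to 4 Hamp2 reads per library and so is known only roughly.

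**Figure D3:**
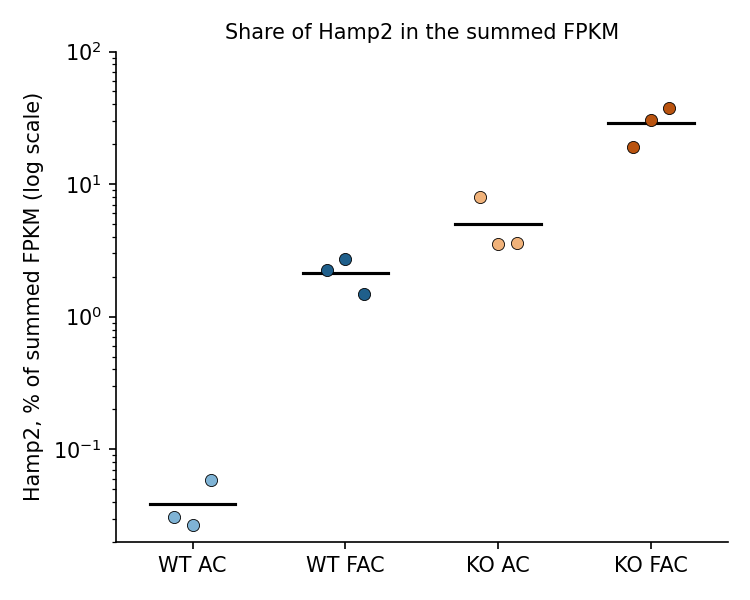
Hamp2 as a percentage of the summed FPKM of Hamp and Hamp2 on a log axis, with 1 point per library and a line at each group mean. The share runs from 0.0268% in a WT AC library to 37.2% in a KO FAC library, and no group overlaps another.

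The log2 ratio of Hamp2 to Hamp, on log2(FPKM + 0.1), was higher with FAC than with AC by 5.7 in WT and by 3.0 in KO. It was higher in KO than in WT by 6.79 under AC and 4.09 under FAC. With 3 libraries against 3, the 2-sided exact permutation test could not go below 0.1, and all 4 comparisons gave that value. Over all 12 libraries, permuting treatment within genotype gave the smallest possible p of 0.005 for the FAC effect on the ratio (4.35, adjusted p 0.0125 over 10 tests). Permuting genotype within treatment gave the same exact p for the genotype effect on the ratio (5.44). In the same family of exact permutation tests, FAC changed Hamp by -2.90 (p 0.005, adjusted 0.0125) and Hamp2 by 1.45 (p 0.01, adjusted 0.02). Genotype gave 0.87 for Hamp (exact permutation p 0.155) and 6.31 for Hamp2 (p 0.005, adjusted 0.0125). The genotype value for Hamp averages a lower KO level under AC with a higher one under FAC.

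The summed FPKM of both genes followed Hamp except in KO FAC. It was 1269, 1380 and 1305 in WT AC and 68.5, 83.4 and 39.4 in WT FAC. In KO AC it was 557.6, 1079 and 1029, and in KO FAC 617.9, 418.9 and 364.7. The KO groups overlapped in this sum. When the reads of both genes were added before the edgeR fit, the FAC change in KO was -0.78 with an adjusted p of 0.08.

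Within each treatment the KO libraries also separated on the third principal component of log2 CPM, which held 7.42% of the variance. Libraries KO AC 1, KO FAC 5 and KO FAC 6 scored 13.5, 3.26 and 27.7, and libraries KO AC 2, KO AC 3 and KO FAC 4 scored -14.6, -9.63 and -22.7. Within each treatment, the libraries on the positive side had the lower Hamp level. The WT libraries also separated on it by treatment, with WT AC at 9.58, 12.2 and 8.41 and WT FAC at -11.3, -14.3 and -2.12. Between the WT treatments the higher Hamp levels thus had the positive scores. Within WT FAC, the library with the highest score (-2.12) had the lowest Hamp FPKM (38.8), as in KO. Within WT AC, the library with the highest score (12.2) had the highest Hamp FPKM (1379). The part of this component in the Hamp result was not tested, and the labels name no batch.

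**Figure D4:**
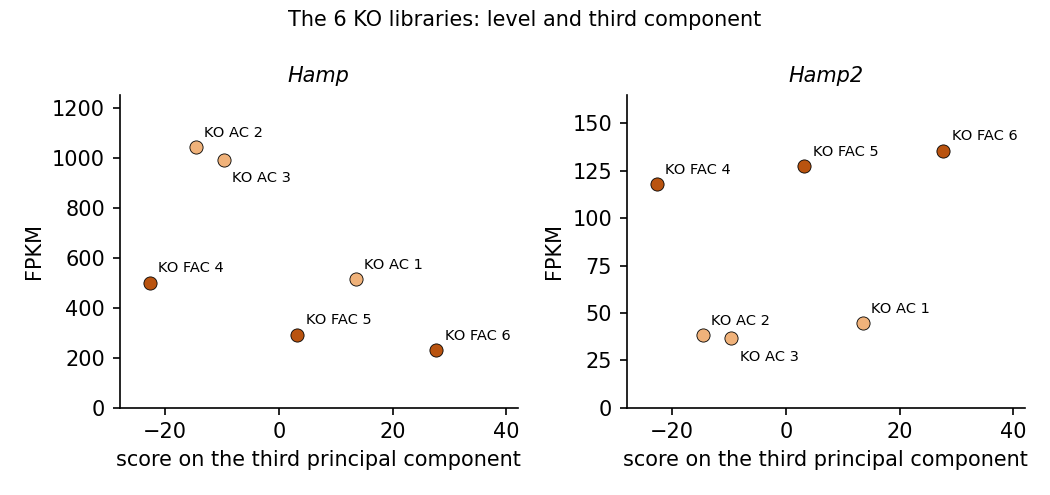
FPKM of Hamp (left) and Hamp2 (right) in the 6 KO libraries against their score on the third principal component, with AC libraries in light and FAC libraries in dark orange. Hamp is lower in the libraries with positive scores within each treatment, whereas Hamp2 separates AC (36.7 to 44.7) from FAC (117.8 to 135.6) at any score.

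The 9 lists of genes around hepcidin hold 83 genes, all listed and 82 tested. They are described by counts and by the median log2 fold change, beside a median over all genes tested that lay between -0.0112 and -0.002 in the 5 comparisons. FAC raised 15 and lowered 19 of them in WT, and raised 20 and lowered 28 in KO. The lists were chosen with earlier results of these data known, so the shares describe them and are no test of the pathway. As shares, 41.5% of the tested list genes were called in WT and 58.5% in KO, against 17.2% and 29.6% of all genes. The difference between genotypes was called for 8, of which 5 were higher in KO minus WT, against 3.15% of all genes.

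The BMP-SMAD target genes are widely read as reporters of the pathway that drives Hamp. In both genotypes FAC lowered 5 of the 6 tested and raised none, and the median was -1.61 in WT and -1.37 in KO. Of all genes, 8.55% were called lower in WT and 14.6% in KO. Id1, which encodes an inhibitor of DNA binding and is induced directly by BMP, fell by 1.97 ± 0.16 in WT and by 1.37 ± 0.18 in KO (edgeR adjusted p 8.26e-06 and 0.00014). Its mean FPKM was 60.0 in WT AC and 14.8 in WT FAC, and 20.9 in KO AC and 7.62 in KO FAC. Id2 fell by 3.14 ± 0.32 and 1.55 ± 0.31, and Atoh8, a transcription factor gene that BMP induces in hepatocytes, fell by 4.06 ± 0.35 and 2.83 ± 0.35. Id3 and Smad6 also fell in both genotypes, whereas Smad7, for an inhibitory SMAD, gave -0.48 ± 0.17 in WT and 0.11 ± 0.17 in KO and was not called. None of the 6 was called for the difference between genotypes, where Id2 gave 1.59 ± 0.45 (edgeR adjusted p 0.0858) and Atoh8 1.23 ± 0.57 (0.26). At an unadjusted edgeR p under 0.05 there were 3 (Id1, Id2 and Smad7), DESeq2 called 1 (Id2) and limma 0. Id4 had too few reads to test.

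Between genotypes, 2 of the 6 targets were called under each treatment, against 42.9% of all genes under AC and 49.5% under FAC. With so few genes, this count is near the background. Under AC, Id1 and Id2 were lower in KO (-1.44 ± 0.16 and -1.14 ± 0.28), and the other 4 tested were not called. Under FAC, Id1 was lower (-0.83 ± 0.18), Smad7 was higher by 0.55 ± 0.17, and the other 4 were not called. The median of the 6 targets was -0.37 under AC and 0.42 under FAC.

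**Figure D5:**
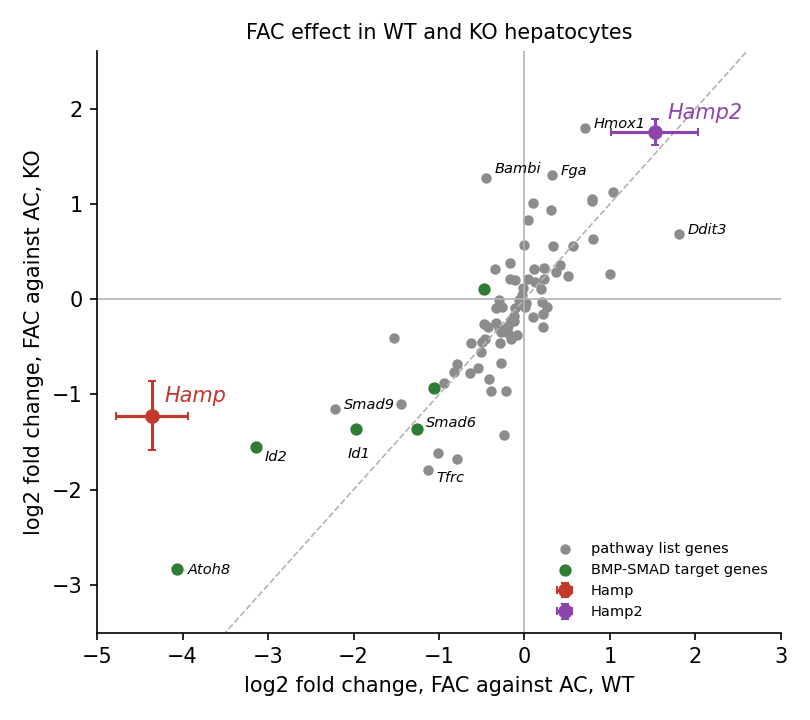
Log2 fold change of FAC against AC in WT (x axis) and in KO (y axis) for Hamp, Hamp2 and the 82 tested genes of the pathway lists, with standard errors drawn for the hepcidin genes and a dashed line where both effects are equal. Hamp (-4.36, -1.22) lies far above the line, the BMP-SMAD target genes Id1, Id2 and Atoh8 are low on both axes, and Hamp2 (1.52, 1.75) lies at the upper right.

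Among the ligands and receptors of the pathway, 1 of 9 was called for FAC in WT and 4 in KO, against 17.2% and 29.6% of all genes. Bmp6, the ligand that sinusoidal endothelial cells supply in the liver, was not called for FAC in either genotype (0.20 ± 0.10 and -0.03 ± 0.11) and was lower in KO under AC (-0.45 ± 0.11) and FAC (-0.68 ± 0.11). Hemojuvelin (Hjv, listed as Hfe2), the BMP co-receptor that Hamp expression needs, was called in no comparison. Neogenin (Neo1), which binds hemojuvelin, rose by 0.22 ± 0.07 in WT, fell by 0.29 ± 0.07 in KO, and differed by -0.52 ± 0.10 (edgeR adjusted p 0.0151). Bmp4 rose in KO (0.93 ± 0.26), and the receptors Acvr1 and Bmpr1a fell there by 0.35 ± 0.08 and 0.19 ± 0.06. Of the 4 SMAD transducers, Smad9, itself induced by BMP, fell by 2.21 ± 0.35 in WT and 1.16 ± 0.37 in KO, at a mean of at most 0.283 FPKM. Smad1 fell in KO (-0.31 ± 0.11) and gave -0.30 ± 0.11 in WT (edgeR adjusted p 0.068).

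Of the 6 iron sensors and proteases upstream of hepcidin, the transferrin receptor gene Tfrc fell by 1.12 ± 0.16 in WT and 1.79 ± 0.17 in KO. Its mRNA is stabilised when cells are short of iron. Tfrc was also lower in KO than in WT under AC (-0.47 ± 0.16) and FAC (-1.14 ± 0.17). Hfe, which signals transferrin saturation, fell in WT (-0.30 ± 0.08) and was lower in KO under AC (-0.69 ± 0.08) and FAC (-0.40 ± 0.08). Tfr2, its partner on hepatocytes, was not called for FAC and was higher in KO by 0.81 ± 0.07 and 0.87 ± 0.07. Tmprss6, the protease that cleaves hemojuvelin and so restrains Hamp, was not called for FAC and was higher in KO by 1.03 ± 0.09 and 1.22 ± 0.09. The related protease gene St14 fell with FAC in KO (-1.61 ± 0.28). St14 was higher in KO than in WT by 2.20 ± 0.28 under AC and by 1.59 ± 0.33 under FAC. Furin, whose product cuts prohepcidin, was called in no comparison.

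Of the 6 feedback inhibitors, Bambi, for a decoy receptor for BMP, was the one called for the difference, against 3.15% of all genes. It rose by 1.27 ± 0.22 in KO and gave -0.45 ± 0.24 in WT, a difference of 1.72 ± 0.32 (edgeR adjusted p 0.0153), with means of 0.213 to 0.517 FPKM. Smad6 and Smad7 are counted here and among the targets. Smurf2 fell in KO by 0.17 ± 0.06, and Fkbp1a was called in no comparison. Between genotypes, 0 of the 6 were called under AC and 3 under FAC, against 42.9% and 49.5% of all genes. The 3 were higher in KO: Bambi by 1.42 ± 0.22, Smad7 by 0.55 ± 0.17 and Smurf1 by 0.57 ± 0.14.

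Hamp shares its IL-6 and STAT3 input with the acute-phase genes. Of 11 inputs, FAC lowered 4 in WT and lowered 6 and raised 1 in KO, against 17.2% and 29.6% of all genes called in either direction. No difference of the FAC effects between genotypes was called among the inputs, against 3.15% of all genes, so that a count of 0 is near the background. At an unadjusted edgeR p under 0.05 there were 2 (Il22ra1 and Socs3), and DESeq2 and limma called 0. Stat3 gave -0.13 ± 0.07 in WT and fell by 0.23 ± 0.07 in KO, where the receptor genes Il6ra and Il6st fell by 0.83 ± 0.18 and 0.67 ± 0.13. Inhbb, for a subunit of activin B, fell by 0.79 ± 0.17 in WT and 0.68 ± 0.17 in KO. Of the 14 acute-phase genes, 7 rose and 1 fell in each genotype. Of all genes, 8.7% rose and 8.55% fell in WT, and 15.0% rose and 14.6% fell in KO. The serum amyloid gene Saa1 rose by 0.41 ± 0.07 and 0.36 ± 0.07, and Hp, for haptoglobin, was the one that fell in both. The FAC effects on Fga and Fgb (fibrinogen chains) differed between genotypes by 0.98 ± 0.17 and 0.91 ± 0.19, as both rose in KO. Between genotypes under AC, 8 acute-phase genes were higher and 3 lower in KO, and 1 input was higher and 4 lower. Under FAC, 7 acute-phase genes were higher and 4 lower, and 1 input was higher and 5 lower. Of all genes, 21.7% were higher and 21.2% lower under AC, and 24.6% and 24.9% under FAC. Saa1 was higher in KO by 1.13 ± 0.07 under AC and by 1.07 ± 0.07 under FAC.

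Of the 16 genes for transcription factors reported to act on Hamp, Ddit3, the stress factor CHOP, rose by 1.80 ± 0.09 in WT and 0.68 ± 0.09 in KO, a difference of -1.12 ± 0.13 (edgeR adjusted p 0.000558). Creb3l3, the liver stress factor CREBH, rose by 0.80 ± 0.22 and 0.64 ± 0.22 and was higher in KO by 1.93 ± 0.23 under AC. Cebpa, for a factor that maintains basal Hamp expression, fell in WT by 0.43 ± 0.12 and gave -0.29 ± 0.12 in KO (edgeR adjusted p 0.079). Epas1, for hypoxia-inducible factor 2 alpha, fell by 0.39 ± 0.08 and 0.96 ± 0.08, a difference of -0.57 ± 0.11. Nr1h4 itself fell by 0.95 ± 0.14 in WT and 0.88 ± 0.16 in KO, and Nr0b2, the FXR target SHP, had too few reads for a precise value and was not called.

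Of the 12 genes for the hepcidin target and cellular iron handling, the exporter gene Slc40a1 rose with FAC by 0.79 ± 0.18 in WT and 1.05 ± 0.19 in KO. It was lower in KO than in WT under AC (-0.92 ± 0.19) and FAC (-0.66 ± 0.18). The ferritin genes Fth1 and Ftl1, for iron storage, rose in both genotypes, Ftl1 by 0.79 ± 0.08 and 1.03 ± 0.08. Cp and Aco1, for ceruloplasmin and the iron regulatory protein IRP1, fell in both. Hmox1, the haem-degrading enzyme, rose by 0.71 ± 0.17 in WT and 1.80 ± 0.18 in KO, a difference of 1.09 ± 0.25 (edgeR adjusted p 0.0418), and Steap3, an endosomal ferrireductase, differed by 0.55 ± 0.10. The other 10 of the list were not called for the difference, where 3.15% of all genes were.

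Around the hepcidin genes, 6 of 17 other annotated genes within 100 kb were listed and 4 had enough reads to test. None of the 4 was called for FAC in WT by edgeR, where 17.2% of all genes were, and the count was 0 also at an unadjusted p under 0.05 and with DESeq2 or limma. For FAC in KO, 3 of the 4 were called, against 29.6% of all genes. Usf2, the neighbouring gene for an E-box factor, rose by 0.21 ± 0.07, Fam187b by 1.21 ± 0.38 and Fxyd5, for a regulator of the sodium pump, by 1.33 ± 0.14. Only Fxyd5 of the 4 was called for the difference (1.05 ± 0.20, edgeR adjusted p 0.0171), against 3.15% of all genes. Between genotypes, 2 of the 4 were called under each treatment, against 42.9% of all genes under AC and 49.5% under FAC. Usf2 and Fxyd5 were higher in KO by 0.27 ± 0.07 and 0.56 ± 0.15 under AC, and by 0.44 ± 0.07 and 1.61 ± 0.14 under FAC. Hamp2 was higher by 6.31 and 6.54.

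The genes whose log2 CPM over the 12 libraries was most like that of each copy were ranked by Pearson's r among 7622 genes, as a description without a p. For Hamp2 the first 5 were Gnmt, Rdh16f2, Cyp2f2, Hpd and Cyp2e1 (r 0.997, 0.997, 0.997, 0.997 and 0.996). Gnmt, for glycine N-methyltransferase, averaged 3.53 FPKM in WT AC and 6.33 in WT FAC, and 89.5 in KO AC and 192 in KO FAC. Hpd, for an enzyme of tyrosine breakdown, averaged 3.46, 5.58, 60.3 and 129 FPKM in the same order, and Cyp2e1, a cytochrome P450 gene, 77.4, 94.9, 465 and 753. The mean of each of the 5 genes was lowest in WT AC, then WT FAC and KO AC, and highest in KO FAC, as for Hamp2. The points share the 4 groups, so such values reflect differences between the groups, and the parts of genotype and FAC were not separated.

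For Hamp the first 5 were Capn5, Gtse1, Npepps, Elac2 and Sulf2, with r between 0.929 and 0.978. Capn5, for a calpain protease, averaged 9.0, 4.1, 7.45 and 5.57 FPKM in that order, which ranks the groups as Hamp does over a much smaller range. Between the copies r was 0.128. With each group centred on its mean, the genes most like Hamp were Atad3a and Eif3d (r 0.988 and 0.987) and the one most like Hamp2 was Psmd3 (0.900), and between the copies r was 0.319. No gene was among the first 5 both with and without centring.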

How the data were processed

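RNA of 12 hepatocyte libraries was measured, 3 per group. The labels' protocols name BGISEQ-500 library preparation. RSEM with mm10 and GRCm38.p6 is named in the submitters' processing notes; versions, aligner, annotation release, read length and strand setting were not given in the sources used here. Deposited by the authors were estimated counts (expected counts, not normalized), FPKM (normalized for gene length and depth) and TPM, the last used only for an alternative of the permutation tests. All member counts were whole numbers, and 1280 to 1367 genes per library had fractional estimates, which were rounded.

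Libraries were grouped by their labels. edgeR 4.0.16 (R 4.3.3; TMM scaling, filterByExpr with a minimum count of 10, trended and robust quasi-likelihood) fitted all 4 groups together and gave 5 comparisons over 12275 genes, with Benjamini-Hochberg adjustment and a threshold of 0.05. Exact permutation tests used log2(FPKM + 0.1). The median-of-ratios scaling, no filter, DESeq2 1.42.0, limma 3.58.1 on log2(FPKM + 1) or log2(FPKM + 0.1), TPM, CPM + 0.1, counts + 0.5 or a pseudocount of 1 for the permutation tests, other dispersions, a replicate block, the compared groups alone, summed copies and leaving out each library were tried. The edgeR step was checked on simulated counts. Gene positions come from RefSeq (GRCm38.p6; both genes matched) and transcripts from GENCODE M21 (GRCm38). A planned comparison of the upstream sequences is not reported here.

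The members and the gene lists were chosen with earlier results of these data known. Named genes are the hepcidin genes, members of the lists, the neighbours of the hepcidin genes within 100 kb, and the 5 genes most like each copy. The last were ranked among genes with a mean of at least 5 FPKM over the 12 libraries.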

Additional observations from a re-analysis of the deposited data

Results flagged for a closer look

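The FAC effect on Hamp differed between the genotypes by a test of the difference itself: KO minus WT was 3.14 ± 0.54 on the log2 scale (edgeR adjusted p 0.0215). Hamp was lower under FAC in all 3 WT libraries than in any WT AC library, and by FPKM also in all 3 KO FAC libraries than in any KO AC library. The difference is one in the size of the fall.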

How the results depend on the processing

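Of 398 recomputed values, 379 were unchanged, 10 lost a call, 4 gained one, 2 reversed and 3 counts moved by over 1.5 times. For a test, unchanged means the same direction and side of the threshold, and for a list count a change within 1.5 times. The total includes the permutation tests of 3 libraries against 3, whose p was 0.1 in every setting. These could not change side, so the total overstates how stable the calls were. Hamp in KO (reported -1.22) lost its call with no filter (-1.23, adjusted p 0.0569), with the 2 groups alone (-1.22, 0.103) and with summed copies (-0.78, 0.08); leaving out a library gave -1.62 to -0.99. The Hamp difference ranged from 2.73 to 3.37 when 1 library was left out, and was 3.54 with summed copies. Hamp2 in WT (1.52) passed with DESeq2 (1.57, 0.0489) and with limma on log2(FPKM + 1) (0.65, 0.0465). It also passed without library WT FAC 6 (1.89, 0.0134) or KO AC 1 (1.52, 0.044), and leaving out a library gave 1.07 to 1.92. The Hamp2 difference (0.23, not called) reversed without library WT AC 3 (-0.16, adjusted p 0.92) and without WT FAC 6 (-0.13, 0.911). Leaving out a library gave -0.16 to 0.68, and limma on log2(FPKM + 1) gave 0.999. The cause of the reversals was not tested. The list count in WT (34) was 48 with the 2 groups alone and 22 without library WT FAC 5, and leaving out a library gave 22 to 42. The count for the difference (8) was 3 without WT AC 3 and 5 without WT FAC 4, and leaving out a library gave 3 to 12. With 2 groups alone, Hamp2 in WT had too few reads to be tested.

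Replicate numbers are shared between genotypes only. Same-numbered libraries deviated with correlations of -0.142 to 0.208, and 3 of 12 libraries correlated best with their own number, so the numbers were not taken as pairs. With the replicate block, the Hamp difference was 3.17 (edgeR adjusted p 0.0156), KO against WT was -0.61 under AC (0.0683) and 2.56 under FAC (0.000239). For Hamp2 these were 0.24 (0.907), 6.31 (5.79e-07) and 6.55 (6.79e-08). No blocked fit exists for FAC against AC. Depth limits the WT levels of Hamp2, which rest on 2 to 12 reads per library.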
